A study of Rattus norvegicus with 6 samples.

Results

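The retinoid cycle of the neural retina was followed through 10 genes, namely Rbp3, Rdh8, Rdh10, Rdh11, Rdh12, Rdh13, Rdh14, Rlbp1, Abca4 and Retsat. They were taken by symbol and not by their values, and each matched 1 of the 34170 genes in the deposited table. Poly-A RNA was sequenced from 6 retina samples of male Sprague-Dawley rats. The diabetic group consisted of 3 samples from rats that had received streptozotocin, a toxin of the insulin-producing beta cells, by intraperitoneal injection at 60 mg/kg on 5 days in a row, after a 12 h fast. Rats with a fasting blood glucose over 16.7 mmol/L, tested 1 week after the last dose, counted as diabetic. The control group consisted of 3 samples from rats injected with the citrate vehicle instead. The labels list these controls as WT and give each sample a body weight of its own, from 100.4 to 110.5 g. Neither the age nor the day of tissue collection is stated, and nothing says outright that the samples are separate animals. The p-values therefore set group differences against the spread between these samples, which may not be a spread between animals.

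The retinoid cycle restores the chromophore of the visual pigments. Light turns the 11-cis-retinal bound to opsin into all-trans-retinal, which the transporter ABCA4 helps to clear from the disc membrane and which retinol dehydrogenases reduce to retinol. Retinol crosses the interphotoreceptor matrix, where the product of Rbp3 binds it, and returns to the 11-cis form in the retinal pigment epithelium, with a further route proposed through Müller glia.

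The sequences at the start sites of 4 members are shown, and no result on levels rests on them. Rbp3 was the most abundant member and Abca4 is the transporter. Rdh11 had the lowest log2 difference between the groups. Rdh12, the neighbour of Rdh11 on chromosome 6, was the member whose groups did not overlap. A link between the sequences and these values was not tested. RefSeq start sites (build GRCr8) matched 7 of the 10 members. Each sequence is 300 bases long and runs 5′ to 3′ on the strand of the gene, from 250 bases before the start to 50 bases after it. Capitals mark every match, on either strand, to TAATCC (the core bound by the photoreceptor factors CRX and OTX2), TAATTA (a general homeodomain core) or TGCTGA (part of the element bound by the rod factor NRL).
Rbp3: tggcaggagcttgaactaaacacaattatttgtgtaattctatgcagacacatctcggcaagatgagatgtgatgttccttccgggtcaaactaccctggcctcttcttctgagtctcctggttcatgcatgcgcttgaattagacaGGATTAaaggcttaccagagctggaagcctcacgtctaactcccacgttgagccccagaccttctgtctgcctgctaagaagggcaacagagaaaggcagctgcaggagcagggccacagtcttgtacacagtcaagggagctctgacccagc
Abca4: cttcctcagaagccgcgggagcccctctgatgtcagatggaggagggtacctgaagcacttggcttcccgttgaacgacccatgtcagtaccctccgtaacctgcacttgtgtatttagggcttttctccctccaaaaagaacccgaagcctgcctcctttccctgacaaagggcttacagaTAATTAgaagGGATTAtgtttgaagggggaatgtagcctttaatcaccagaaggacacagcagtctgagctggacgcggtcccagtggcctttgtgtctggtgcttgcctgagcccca
Rdh11: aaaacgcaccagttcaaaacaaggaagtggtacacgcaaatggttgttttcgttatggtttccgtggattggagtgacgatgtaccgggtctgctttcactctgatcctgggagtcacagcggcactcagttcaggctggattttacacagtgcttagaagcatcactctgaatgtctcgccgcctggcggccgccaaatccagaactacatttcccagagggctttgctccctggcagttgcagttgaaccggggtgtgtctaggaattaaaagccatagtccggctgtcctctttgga
Rdh12: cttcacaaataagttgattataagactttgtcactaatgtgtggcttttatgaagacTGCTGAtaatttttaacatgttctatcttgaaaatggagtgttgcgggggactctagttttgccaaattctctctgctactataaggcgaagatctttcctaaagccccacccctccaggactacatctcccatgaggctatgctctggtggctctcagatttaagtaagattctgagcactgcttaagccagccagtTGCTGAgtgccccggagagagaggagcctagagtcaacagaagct

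In GRCr8 these windows are chr16:9273537-9273836 (plus strand) for Rbp3, chr2:212849235-212849534 (plus) for Abca4, chr6:103728198-103728497 (minus) for Rdh11 and chr6:103748207-103748506 (plus) for Rdh12. TAATCC, read as GGATTA, stood in the windows of Rbp3 and Abca4 and in none of the other 5 members with a window. Of all 33469 windows of this length, 7.17% held it. Abca4 also held TAATTA, present in 5.36% of windows, upstream of the GGATTA and not overlapping it. TGCTGA, present in 18.4% of windows, occurred 2 times in Rdh12 and 1 time in Rlbp1, where it is read as TCAGCA. The window of Rdh11 held none of the 3 motifs. A match describes letters and not a bound site.

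Levels are given as FPKM, a fragment count scaled by gene length and library size, so that genes can be compared with each other. The fragments rebuilt from the FPKM values came to 12417686 in the shallowest library and 19115426 in the deepest, and the 10 members took 0.393% to 0.473% of them. The labelled tissue was checked against its markers. The sum of 12 rod genes was 57885.5 to 66817.5 FPKM in control and 45262.5 to 53752 FPKM in diabetic libraries. Pigment epithelium markers were present, with the isomerase gene Rpe65 at 2.44 to 7.10 FPKM, Ttr at 29.8 to 74.3 FPKM and Rrh at 38.8 to 117 FPKM, and Cryaa, a lens crystallin gene, reached 130.4 FPKM in control 3 against 2.51 to 17.8 FPKM elsewhere. In bulk tissue, fewer cells of a type and less RNA per cell cannot be told apart. Below, 3 values of a group are always listed in the order of replicates 1, 2 and 3.

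Rbp3 was the most abundant member and Rdh13 the least. By mean FPKM the order was Rbp3, Rdh11, Abca4, Rlbp1, Rdh8, Rdh12, Retsat, Rdh14, Rdh10 and Rdh13. The lowest Rbp3 library (436 FPKM) was above the highest Rdh11 library (329.6 FPKM). The ranges over the 6 libraries were also separate between Abca4 and Rlbp1, between Rdh12 and Retsat, and between Rdh10 and Rdh13. The other neighbours in this order had overlapping ranges. Within each of the 6 libraries, however, Rdh11 exceeded Abca4 (1.17 to 1.81 times), Rdh8 exceeded Rdh12 (1.10 to 1.35 times) and Retsat exceeded Rdh14. Rlbp1 exceeded Rdh8 in 5 of 6 libraries and Rdh14 exceeded Rdh10 in 4 of 6.

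**Figure D1:**
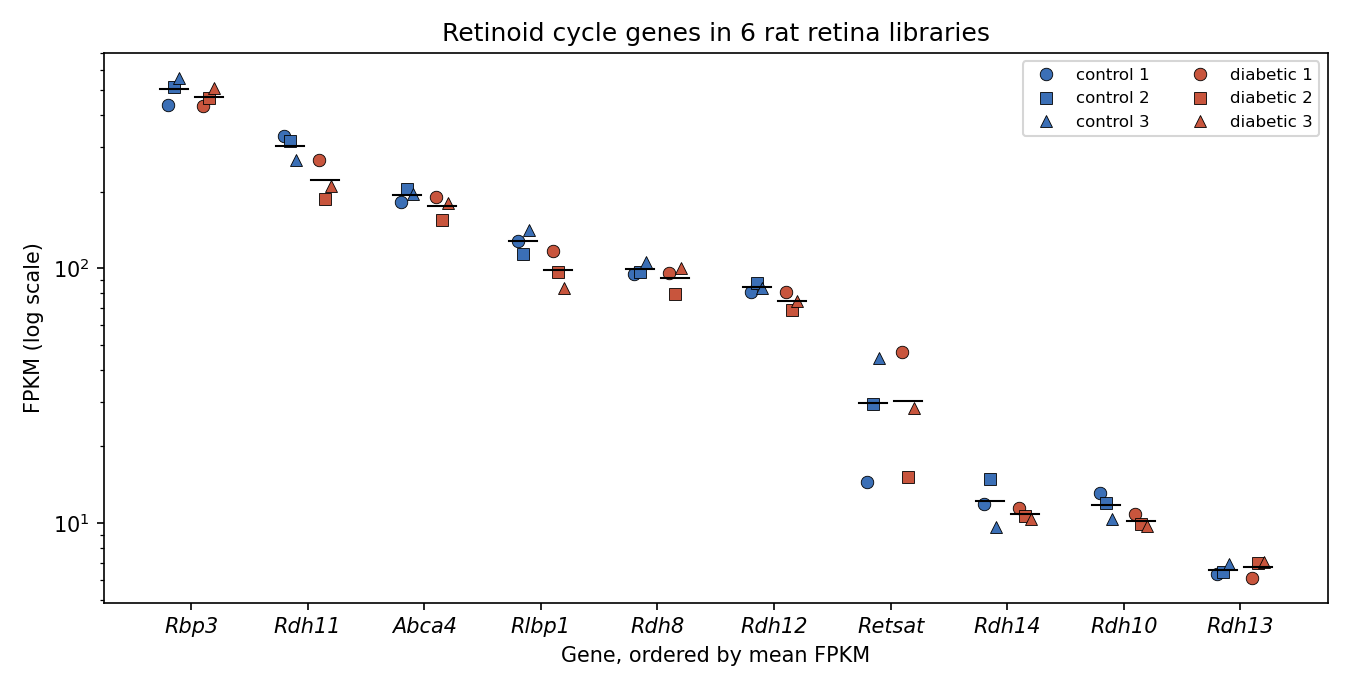
FPKM (log axis) of the 10 retinoid cycle genes, ordered by mean, in 3 control (blue) and 3 diabetic (red) libraries. Rbp3 sits at 436 FPKM or more in each library and Rdh13 at 7.05 FPKM or less, and Retsat spreads over more than 3-fold within both groups.

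The comparison asks which members differ between diabetic and vehicle-treated rats. No member passed: on log2(FPKM + 0.5), limma with Benjamini-Hochberg adjustment over 16363 genes called 0 of 10 members and 0 genes in all (0.0%), and voom on the rebuilt fragments called 0 members and 2 genes in all. The members' adjusted p-values from limma ran from 0.177 to 0.982. Without adjustment, 2 members were under 0.05, Rdh11 and Rlbp1, both lower in diabetic libraries, where 10.7% of all genes were called lower, 9.15% higher and 19.9% in either direction. In 1 member, Rdh12, the groups did not overlap, with diabetic libraries lower, against 13.6% of all genes lower and 26.2% in either direction. These shares lie near the background.

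Of the 10 members, 8 had a log2 difference (diabetic minus control) below 0, against 49.9% of all genes, but 6 did after rescaling to TPM (31.4% of all genes there) and 6 under quantile normalization (50.5% there). The members' median was -0.15 beside 0.00 for all genes. TPM divides each library by a single factor, so it moved all members by nearly the same amount. With TPM the median of all genes moved to 0.13 and that of the members to -0.01, and under quantile normalization the members' median was -0.04.

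**Figure D2:**
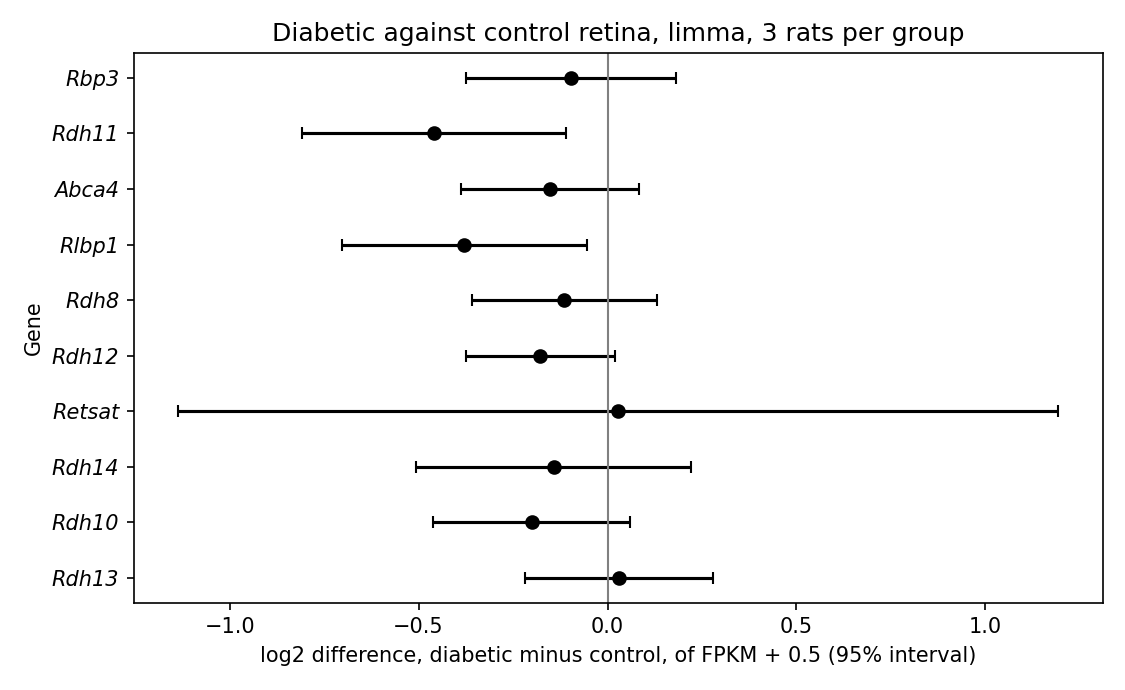
Log2 difference (diabetic minus control) of log2(FPKM + 0.5) for each gene with its 95% interval from limma, 3 libraries per group. The title reads 3 rats per group, but the samples are not stated to be separate animals. The intervals of Rdh11 and Rlbp1 lie below 0, those of the other 8 genes include 0, and that of Retsat, from -1.14 to 1.19, is the widest; 0 of these genes passed after adjustment over all genes.

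The reductases of the photoreceptor act on the all-trans-retinal released from bleached pigment. Rdh8 encodes the outer segment enzyme. Controls had 95.0, 96.8 and 106 FPKM of it, and diabetic libraries 95.6, 79.6 and 101 FPKM. The groups overlapped, and diabetic 2 was the only library below the controls. For Rdh8 the log2 difference was -0.11 (95% interval -0.36 to 0.13, adjusted p = 0.577, limma), and it was 0.02 with TPM, 0.05 under quantile normalization and -0.01 without diabetic 2.

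Rdh12 encodes an inner segment enzyme whose human counterpart is mutated in an early-onset retinal dystrophy. Its level was 80.8, 88.0 and 83.7 FPKM for controls against 80.7, 68.4 and 74.4 FPKM for diabetic libraries. All 3 diabetic libraries lay below all 3 controls, with diabetic 1 almost equal to control 1. The means were 84.2 ± 3.65 and 74.5 ± 6.17 FPKM (SD, n = 3 each). The log2 difference of -0.18 (95% interval -0.37 to 0.02, adjusted p = 0.291, limma) shrank to -0.04 with TPM, to -0.05 under quantile normalization and to -0.12 without diabetic 2.

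Rdh11 encodes an enzyme of photoreceptor inner segments and pigment epithelium that accepts both all-trans and cis retinoids. Controls had 329.6, 315 and 266 FPKM and diabetic libraries 267, 188 and 211 FPKM. Diabetic 1 was level with control 3, and diabetic 2 and 3 lay below every control. The mean went from 303 ± 33.5 FPKM to 222 ± 40.9 FPKM (SD, n = 3 each), or 73.2% of control. The log2 difference was -0.46 (SE 0.15, 95% interval -0.81 to -0.11) and did not pass (adjusted p = 0.177, limma; from 0.0948 to 0.404 across the settings tried). It was below 0 in all 18 alternatives, the smallest being -0.25 under quantile normalization.

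Rdh11 and Rdh12 point away from each other on chromosome 6, at 102356492 to 102372611 on the minus strand and 102392828 to 102405750 on the plus strand of the table's unnamed build, with 20216 nt between them. The ratio of their levels, Rdh11 over Rdh12, was 4.08, 3.58 and 3.17 for controls and 3.31, 2.75 and 2.84 for diabetic libraries. Control 3 and diabetic 1 overlapped in this ratio too. Of the genes around the pair, Vti1b, 3088 nt from Rdh11, had a log2 difference of -0.17, Arg2, beyond Vti1b, one of -0.02, and Zfyve26, 4130 nt from Rdh12, one of 0.49 (adjusted p = 0.140, limma).

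Rdh11 made up most of the summed level of the 6 Rdh members. Other dehydrogenase genes of the pathway, such as Rdh5, are outside this sum. The 6 Rdh members summed to 482 to 537 FPKM in control and 363 to 472 FPKM in diabetic libraries, with no overlap. Among single genes, 13.6% were lower without overlap, and of these members only Rdh12 was. The sum was not taken under other scalings. The share of Rdh11 in that sum was 55.1% to 61.4% among controls and 51.1% to 56.6% among diabetic libraries. Rdh8 held 17.7% to 24.4% over the 6 libraries and Rdh12 15.0% to 18.8%. Rdh10, Rdh13 and Rdh14 each held 2.94% or less.

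**Figure D3:**
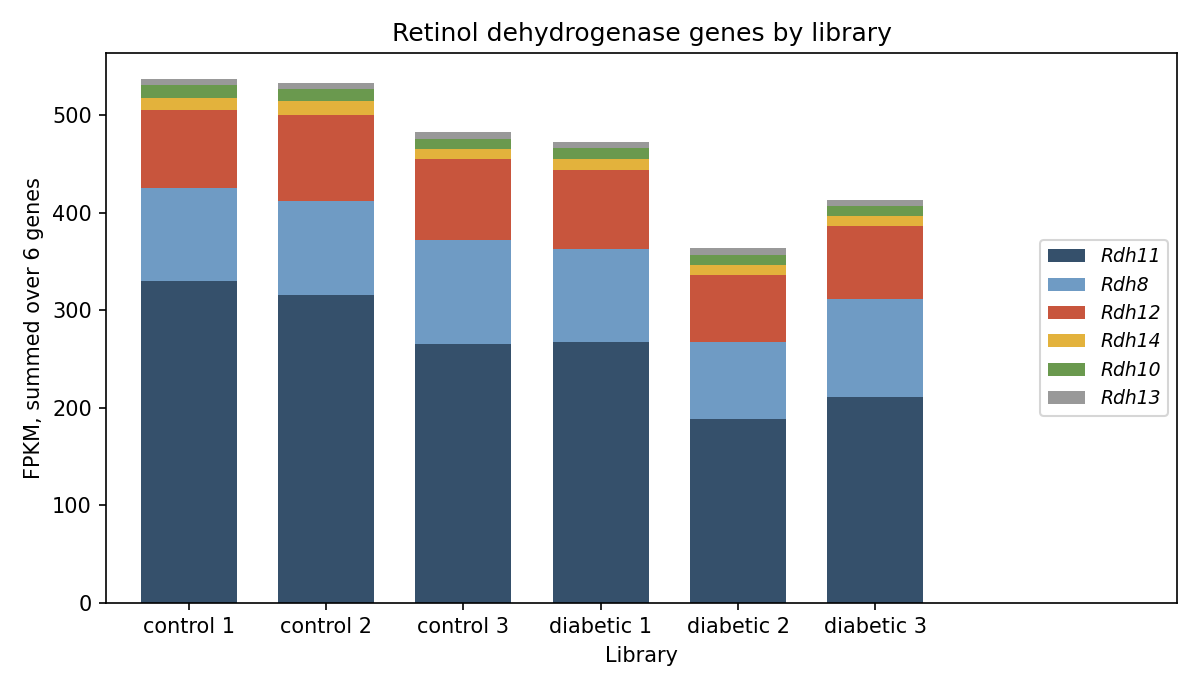
Stacked bars of FPKM for the 6 Rdh members in each library, the bar height being their sum. The control bars reach 482 to 537 FPKM and the diabetic bars 363 to 472 FPKM, and Rdh11, at the base, is 51.1% or more of each bar.

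Rdh10, Rdh14 and Rdh13 were the less abundant Rdh members. Rdh10 oxidises retinol to retinal and is also needed to make retinoic acid. Controls had 13.1, 12.0 and 10.4 FPKM and diabetic libraries 10.9, 9.94 and 9.75 FPKM. Diabetic 1 was above control 3, so the groups overlapped. For Rdh10 the log2 difference was -0.20 (95% interval -0.46 to 0.06, adjusted p = 0.357, limma), and -0.07 with TPM. The ribosomal protein gene Rpl7, named for its position, starts 681 nt away on the other strand and had a log2 difference of -0.53.

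Rdh14 encodes another retinol dehydrogenase of the short-chain family. Controls had 11.9, 14.9 and 9.67 FPKM, and the diabetic values of 11.4, 10.7 and 10.3 FPKM fell inside that range. The log2 difference was -0.14 (95% interval -0.51 to 0.22, adjusted p = 0.646, limma), but 0.01 without control 2 and -0.29 without control 3. Rdh13 encodes a mitochondrial enzyme. Controls had 6.31, 6.43 and 6.91 FPKM and diabetic libraries 6.11, 6.96 and 7.05 FPKM, with full overlap. The spread in control, a coefficient of variation of 4.82%, was no larger than the 5.89% that counting error alone gives at this depth. For Rdh13 the log2 difference was 0.03 (95% interval -0.22 to 0.28, adjusted p = 0.900, limma), and its sign turned in 3 of 18 alternatives.

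The transport genes follow. Rbp3 encodes the interphotoreceptor retinoid-binding protein and lies at 10277775 to 10286243 on the plus strand of chromosome 16 in the table. Controls had 438, 514 and 559 FPKM and diabetic libraries 436, 465 and 509.5 FPKM. The lowest libraries of the 2 groups were almost equal, and the ranges overlapped. The log2 difference was -0.10 (95% interval -0.37 to 0.18, adjusted p = 0.688, limma), but 0.04 with TPM, 0.19 under quantile normalization, -0.19 without control 1 and -0.02 without control 3. At 23473 to 36363 fragments per library, counting error gives a coefficient of variation of 0.617% in control, where 12.1% was observed.

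Abca4 encodes the disc membrane flippase whose human counterpart is mutated in Stargardt disease. Controls had 182, 204 and 195 FPKM and diabetic libraries 191, 154 and 180.3 FPKM. Diabetic 1 lay inside the control range and diabetic 2 was the lowest library, as it was for Rdh8, Rdh11 and Rdh12. The log2 difference was -0.15 (95% interval -0.39 to 0.08, adjusted p = 0.435, limma), but 0.06 under quantile normalization, -0.33 with the length trend removed and -0.06 without diabetic 2. The summed rod genes, given above, were lower in all 3 diabetic libraries, and their part in the values of the photoreceptor members was not tested.

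Rlbp1 encodes the cellular retinaldehyde-binding protein of pigment epithelium and Müller glia, which holds 11-cis retinoids. Controls had 128, 114 and 142 FPKM and diabetic libraries 117, 96.4 and 83.6 FPKM. Diabetic 1 was above control 2, and diabetic 2 and 3 were below every control. The mean went from 128 ± 13.7 FPKM to 98.9 ± 16.7 FPKM (SD, n = 3 each), or 77.3% of control. The log2 difference of -0.38 (SE 0.14, 95% interval -0.70 to -0.05) did not pass (adjusted p = 0.203, limma; from 0.158 to 0.521 across the settings tried). It was below 0 in all 18 alternatives, the smallest being -0.21 under quantile normalization.

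Markers of the cell types that hold Rlbp1 were read beside it. Of 14 pigment epithelium markers, 13 were found and 12 tested; 10 of the 12 had a log2 difference below 0, beside 49.9% of all genes. In 3 of them, Rrh, Tyrp1 and Pmel, diabetic libraries were lower without overlap, beside 13.6% of all genes. Their summed level was 109 to 223 FPKM among controls and 86.9 to 152 FPKM among diabetic libraries, and 0 of them were at 0 in every library. Tyrp1, a pigment granule gene, was at 4.46, 4.19 and 3.95 FPKM for controls and 3.01, 0.726 and 1.28 FPKM for diabetic libraries. Rpe65, the isomerase, was highest in diabetic 1 (7.10 FPKM), with 3.38 and 2.44 FPKM in diabetic 2 and 3; its log2 difference was 0.02, and -0.37 without diabetic 1.

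Of 10 Müller genes, 3 had a log2 difference below 0 and 7 above, and the median was 0.09. The 3 below were Glul (glutamine synthetase) at -0.28, Car14 (a carbonic anhydrase) at -0.63 and Apoe (a lipid carrier) at -0.78, the last 2 without overlap. The 7 above were Slc1a3, Aqp4, Kcnj10, Sox9, Dkk3, Vim and Clu, from 0.04 to 0.17, and in all 7 the groups overlapped. Glul is the most abundant gene of the list, and the summed level of the list was 1791 to 2042 FPKM among controls and 1415 to 1804 FPKM among diabetic libraries. The part of either cell type in the values of Rlbp1, Rdh11 and Rdh10 was not tested.

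**Figure D4:**
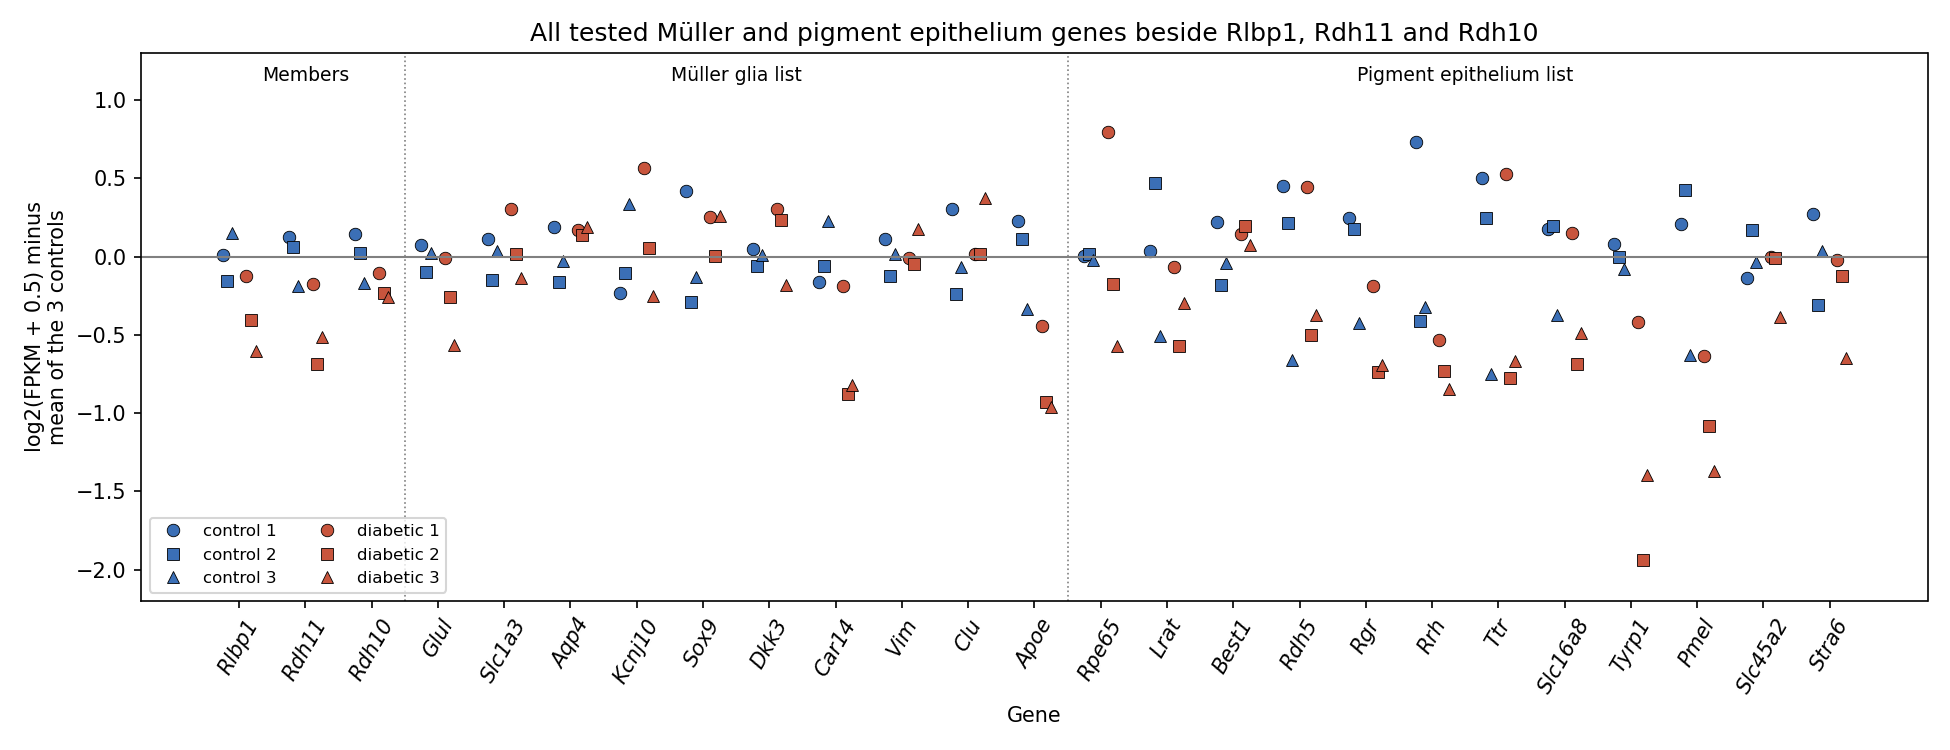
Log2(FPKM + 0.5) minus the mean of the 3 controls, by library, for Rlbp1, Rdh11 and Rdh10 beside all 10 Müller genes and all 12 tested pigment epithelium genes (blue, control; red, diabetic). In Rlbp1, Rdh11 and Rdh10, diabetic 2 and 3 lie below every control; 7 of the 10 Müller genes have a log2 difference above 0, and 10 of the 12 pigment epithelium genes have one below 0.

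Retsat encodes the enzyme that saturates retinol to dihydroretinol, a branch off the visual cycle. Controls had 14.5, 29.4 and 44.6 FPKM and diabetic libraries 47.0, 15.2 and 28.2 FPKM. The groups covered the same range, and the highest library was 3.08 times the lowest in control and 3.09 times in the diabetic group. The log2 difference was 0.03 (95% interval -1.14 to 1.19, adjusted p = 0.982, limma), but -0.40 without control 1, -0.36 without diabetic 1 and 0.44 without diabetic 2. The coefficient of variation was 51.1% in control and 53.0% in the diabetic group, where counting error alone gives 3.39% and 2.83%. Among 7660 genes tested with a mean of 10 FPKM or more, 21 varied over 3-fold within both groups, Retsat included.

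The genes beside Retsat did not share this spread. Retsat lies at 100465170 to 100474301 on the plus strand of chromosome 4. Elmod3 starts 57 nt from it on the other strand and was between 13.7 and 16.7 FPKM in the 6 libraries. Tgoln2, 1114 nt past its end on the other strand, was between 35.9 and 45.5 FPKM. Both were looked up after the values of Retsat were seen.

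**Figure D5:**
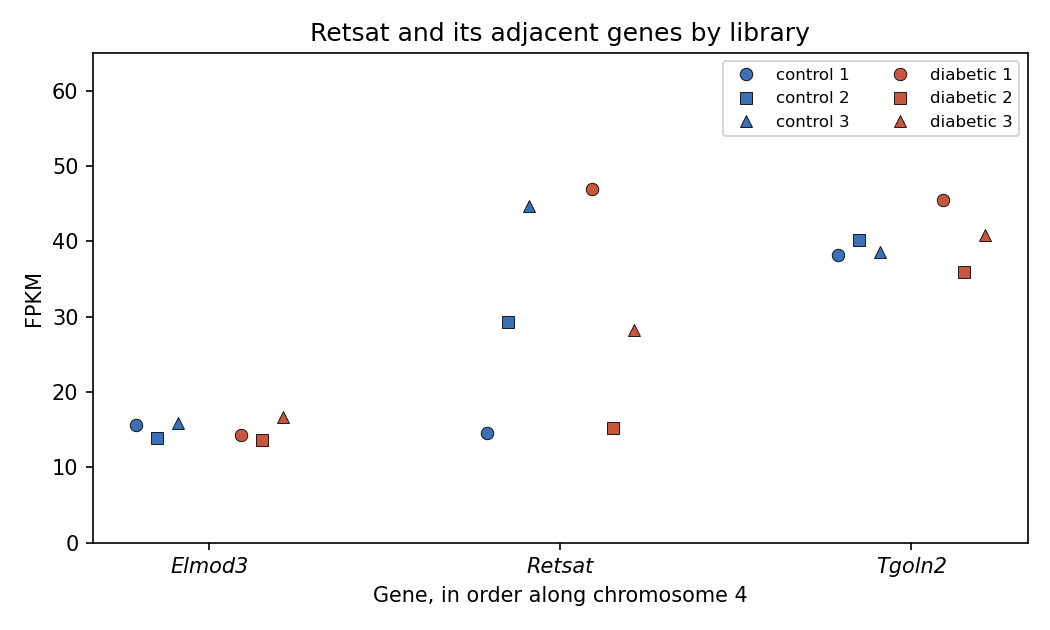
FPKM of Retsat and of the genes on either side of it on chromosome 4, by library. Retsat ranges from 14.5 to 47.0 FPKM with both groups spread alike, whereas Elmod3 stays between 13.7 and 16.7 FPKM and Tgoln2 between 35.9 and 45.5 FPKM.

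Each member was also set against the rod genes of its own library, as log2(FPKM + 0.5) minus the median of the 12 rod genes. That median was 11.10, 11.30 and 11.05 for controls and 10.67, 10.52 and 10.69 for diabetic libraries, a difference of -0.53. In every library it fell between Rom1 and Rcvrn, whose log2 differences of -0.52 and -0.53 were the lowest of the list. It thus follows Rom1 and Rcvrn and not the rod list as a whole. On this measure 7 members were higher in all diabetic than in all control libraries, beside 68.7% of all genes, and 0 were lower, beside 0.232%. The members' count is near the background. Rdh11, Rlbp1 and Retsat overlapped. The size of the rod reference depended on how it was taken. The median of the 12 genes' own log2 differences was -0.26, and with each rod gene centred on its control mean before the median of a library was taken, a reference added after the data were seen, the rod genes differed by -0.25. Then 1 member, Rdh13, was higher without overlap, beside 31.8% of all genes, and 0 were lower, beside 1.58%. For Rdh11 the difference relative to rod genes was 0.07 by the first reference and -0.21 by the other, and for Rlbp1 it was 0.15 and -0.13, so the sign for both genes turned with the reference.

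Genes with the most similar profile were taken by the smallest root mean square difference of centred log2(FPKM + 0.5) over the 6 libraries, among 9806 candidates. For Rbp3 these were Zbtb45 (0.03), LOC361646 (0.04) and Mib2 (0.04). For Rdh11 they were Snrpd3 (0.06), Tsen15 (0.07) and AABR07066818.1 (0.07), and for Abca4 they were Eipr1 (0.03), Ctsd (0.03) and Immt (0.04). The closest match to Rdh11 was thus more distant than the closest to Rbp3 or Abca4. For Retsat, looked up after its values were seen, the closest was Nrtn at 0.28.

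The other genes of the pathway were 46 listed symbols, of which 42 were found and 30 tested. Of the 30, limma and voom each called 0, and 6 had an unadjusted p under 0.05, which is near the 19.9% of all genes. In 4 the groups did not overlap with diabetic libraries lower, beside 13.6% of all genes, and in 1 with them higher, beside 12.7%. The median log2 difference of the 30 was -0.12.

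Opsins receive the restored chromophore. Opn1sw, the short-wavelength cone opsin gene, was the one gene of the 30 that was higher without overlap, with 15.5, 17.3 and 14.0 FPKM for controls and 30.2, 20.0 and 34.5 FPKM for diabetic libraries. Its log2 difference of 0.81 (95% interval 0.34 to 1.27) did not pass (adjusted p = 0.137, limma). The middle-wavelength cone opsin gene Opn1mw had 40.5 to 68.0 FPKM among controls and 62.3 to 72.4 FPKM among diabetic libraries, which overlapped.

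In the pigment epithelium arm, Lrat, which esterifies retinol, was at 0.348 to 1.24 FPKM over the 6 libraries and Rdh5, the 11-cis-retinol dehydrogenase gene, at 0.473 to 1.60 FPKM. Rgr, an opsin gene of pigment epithelium and Müller glia, had 11.7, 11.1 and 7.16 FPKM for controls and 8.53, 5.67 and 5.85 FPKM for diabetic libraries, with overlap through control 3 (log2 difference -0.54, adjusted p = 0.246, limma). Rrh, the peropsin gene, had 117, 52.4 and 55.9 FPKM for controls and 48.3, 41.9 and 38.8 FPKM for diabetic libraries. It was lower without overlap, and control 1 carried much of the log2 difference of -0.70, which was -0.33 without that library.

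Among the binding proteins, Crabp1, which binds retinoic acid in the cytoplasm, had 48.3, 54.3 and 46.8 FPKM for controls and 43.9, 34.2 and 28.1 FPKM for diabetic libraries. Its log2 difference was -0.51 (95% interval -0.88 to -0.13, adjusted p = 0.170, limma). Crabp2 (-0.23) and Dgat1 (-0.18), an acyltransferase that can esterify retinol, were also lower without overlap, and their smallest values over all alternatives were -0.09 and -0.04. Crabp1, Crabp2 and Dgat1 all missed the threshold.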

How the data were processed

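The labels' protocols describe poly-A selection and a kit for which they record no marking of strand. The submitters' processing notes list the aligner HISAT2 2.0.5; how fragments were counted, and the build and annotation, the sources do not say. FPKM values were deposited in 1 table with gene length and coordinates, per the file headers. Below the highest fragment counts, FPKM times length gave whole multiples of 1 step per library (100% of these values within 0.05 of a whole fragment). All fragments were rebuilt from that step. Larger values, such as those of Rbp3, Abca4, Rdh11 and Rlbp1, lay outside this check. Counting error is the Poisson value of these fragments.

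The test was limma 3.58.1 (R 4.3.3) on log2(FPKM + 0.5) for genes averaging 0.5 FPKM or more, with group as the only term, an intensity trend, two-sided p-values, Benjamini-Hochberg adjustment over all genes and a threshold of 0.05. This scale understates changes of low genes. All 10 members entered the test. The members, gene lists and naming rule were chosen with earlier results of these data known. The rule names all members; Rpe65, Lrat, Rdh5, Rgr, Opn1sw and Opn1mw; other retinoid genes of at least 1 FPKM whose groups do not overlap; markers that a statement on tissue turns on; and 3 similar genes, of at least 5 FPKM, for each of the 3 most abundant members. Listed symbols without a row were not analysed here, and some named by the rule are not reported here. Alternatives covered pseudocounts, filters, scalings, variance models, voom with trimmed-mean scaling, protein-coding genes, a replicate block and each library left out; Müller genes and centred rod genes as references were added after seeing the data. The functions were tested on simulated data. Promoter windows are RefSeq's (GRCr8) and were not mixed with the table's coordinates. The m6A part of the series was not analysed here.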

Additional observations from a re-analysis of the deposited data

How the results depend on the processing

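Under all 18 alternatives 0 members and 0 of the other retinoid genes passed. Over all genes 2 passed with voom, and 0 to 4 when 1 library was left out (1 without control 2, 4 without diabetic 1, 1 without diabetic 2). The members' median log2 difference was -0.0126 with TPM and -0.0389 under quantile normalization, and -0.23 to -0.10 when 1 library was left out. With TPM, a common shift that moved the median of all genes to 0.1301, Rbp3 turned to 0.0414 and Rdh8 to 0.0222. Under quantile normalization Rbp3 turned to 0.1926, Rdh8 to 0.0517, Abca4 to 0.0608 and Rdh13 to -0.0326, and with the length trend removed Rdh13 was at -0.0090. Leaving out 1 library gave -0.4023 to 0.4390 for Retsat, -0.2904 to 0.0092 for Rdh14 and -0.0040 to 0.0911 for Rdh13. Beyond the common shift with TPM, the cause of these changes was not tested. Calls lower against higher at an unadjusted p under 0.05 were 1757 and 1498, and 692 and 3009 with TPM. Same-numbered libraries did not deviate together (correlations across genes of -0.05, -0.08 and 0.00). This cannot tell whether same-numbered samples were handled as pairs. With the replicate block the members' median was -0.15 and 0 members and 0 genes passed. With Müller genes in place of rod genes as the reference, Rdh11 turned to -0.2186 and Rlbp1 to -0.1381. That Müller reference, a list median taken without centring, differed by -0.24 between the groups. The genes in the middle of the list were Car14, Vim or Slc1a3, depending on the library. The median of the Müller genes' own log2 differences was 0.09, so the values relative to Müller genes also depend on how the reference is taken. With rod genes centred before the median, Rdh11 turned to -0.2095 and Rlbp1 to -0.1290. A gene of 1 kb with 3 fragments reads 0.158 to 0.248 FPKM, which limits Lrat and Rdh5 more than any member.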

Other observations

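Retinoic acid signalling, the other use of retinoids in the retina, was measured through its receptors. Rara, Rarb, Rarg, Rxra, Rxrb and Rxrg had log2 differences from -0.06 to 0.41. Rarb had the highest, with 3.85, 5.91 and 5.25 FPKM for controls and 5.47, 6.34 and 8.64 FPKM for diabetic libraries, which overlapped (adjusted p = 0.325, limma). Aldh1a1, whose product oxidises retinal to retinoic acid, reached 44.0 FPKM in control 2, and the other 5 libraries had 21.7 to 27.7 FPKM. These genes were named after their values were seen.

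The 21 genes that varied over 3-fold within both groups included, beside Retsat, the lens crystallin genes Cryaa, Crybb2 and Cryba1, ribosomal protein entries such as Rplp2, Rpl7a, Rps6 and Rps9 (genes with near-identical copies, so their values are uncertain), and Il4r, Mrps10 and Nfs1. Nfs1, the cysteine desulfurase gene of iron-sulfur cluster assembly, was high in control 1 (34.7 FPKM) and diabetic 3 (27.2 FPKM), and the other 4 libraries had 0.848 to 1.32 FPKM. Il4r ran from 2.02 to 64.3 FPKM. These values are given without a test.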
